A study of Mus musculus with 23 samples.

Results

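The vector difference pooled over stress is the mean of a pair of contrasts in mouse orbitofrontal cortex (OFC): ZBTB7A control against GFP control, and ZBTB7A stress against GFP stress, each given equal weight. Its members are all 23 libraries of the series, chosen by their labels and not by measured values: 10 labelled ZBTB7A and 13 labelled GFP. RNA-seq of polyadenylated RNA was made from male wild-type C57BL/6J mice, with age given as 8 weeks. All groups received an AAV6 vector with the promoter of the astrocyte gene Gfap into the OFC on day 0, so the GFP groups carry virus, surgery and GFP too; the ZBTB7A vector also carries GFP, per the labels. GFP control (n = 5) and ZBTB7A control (n = 5) had no defeat, while GFP stress (n = 8) and ZBTB7A stress (n = 5) had a subthreshold social defeat on day 21, a brief exposure to an aggressor that on its own is meant to fall short of a lasting behavioural change. Behaviour was tested from day 22 to day 27 (forced swim, sucrose preference and social interaction), and infected tissue was cut out on day 28. The tissue is bulk OFC, so transduced astrocytes are mixed with all other cells, and fewer cells of a type cannot be told apart from less RNA per cell. The labels do not say whether each library is a separate mouse, so p-values measure the spread between these samples.

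ZBTB7A is a zinc-finger protein with a BTB domain, which recruits histone deacetylases and other corepressors, and its fingers recognise a GACCC core in DNA. It is known as a repressor of fetal globin genes and as a factor that opens chromatin for NF-kB in inflammatory gene control. Astrocytes clear glutamate, supply neurons with lactate and cholesterol, and become reactive, with high Gfap, after injury or inflammation. Pooling over stress asks what the ZBTB7A vector did to OFC RNA whether or not the animal was defeated.

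The pooled comparison found small differences, none past correction. Of 16385 tested genes 0 had an adjusted p under 0.05 (limma, Benjamini-Hochberg; 0% called), and the smallest adjusted p was 0.611. Unadjusted p was under 0.05 for 994 genes (6.07% of those tested), 452 higher (2.76%) and 542 lower (3.31%) in the libraries labelled ZBTB7A, and 50.7% of all tested genes lay below 0. The genes of smallest p were mostly lower under ZBTB7A: the cell death genes Bok and Bad, the potassium channel subunit Kcng4, and Cox8a of the respiratory chain. Apaf1, Jag1 and Fras1 were among the few on the higher side. DESeq2 on the recovered reads, an alternative test, called 7 of the 16385 genes at an adjusted p of 0.0385, all lower. They were Bok, Ttr, Hcfc1r1, Coprs, Tagln3, Cox8a and Tmem160. DESeq2 gave no adjusted p for 2866 genes, so its correction covered fewer genes than that of limma or edgeR. edgeR on the same reads called 0.

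Bok and Bad, both of the BCL2 family, had 2 of the 3 smallest p among genes whose mean was at least 50, and Bad was the only gene whose groups did not overlap in either stress condition. Their promoter windows are shown for that reason, and because promoters are where a DNA-binding protein could be looked for. They run from 250 bases before to 50 bases after the transcription start, from RefSeq on GRCm38.p6, plus strand, 5′ to 3′. Capitals mark GACCC or its reverse complement GGGTC. Bok is shown at chr1:93685325-93685624, the upstream Bad start at chr19:6941611-6941910 and the downstream Bad start at chr19:6942312-6942611.
Bok: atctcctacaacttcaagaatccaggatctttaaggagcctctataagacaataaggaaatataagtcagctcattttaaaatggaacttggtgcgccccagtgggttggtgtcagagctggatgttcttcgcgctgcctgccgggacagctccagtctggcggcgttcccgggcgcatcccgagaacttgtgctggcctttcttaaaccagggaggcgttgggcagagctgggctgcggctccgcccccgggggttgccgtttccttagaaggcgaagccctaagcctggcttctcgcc
Bad upstream start: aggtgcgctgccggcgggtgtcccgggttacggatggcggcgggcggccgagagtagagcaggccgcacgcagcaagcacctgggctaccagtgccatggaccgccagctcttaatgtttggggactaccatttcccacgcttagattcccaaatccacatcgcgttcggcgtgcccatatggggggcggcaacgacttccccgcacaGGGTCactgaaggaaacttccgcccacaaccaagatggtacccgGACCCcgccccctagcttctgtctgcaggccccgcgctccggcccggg
Bad downstream start: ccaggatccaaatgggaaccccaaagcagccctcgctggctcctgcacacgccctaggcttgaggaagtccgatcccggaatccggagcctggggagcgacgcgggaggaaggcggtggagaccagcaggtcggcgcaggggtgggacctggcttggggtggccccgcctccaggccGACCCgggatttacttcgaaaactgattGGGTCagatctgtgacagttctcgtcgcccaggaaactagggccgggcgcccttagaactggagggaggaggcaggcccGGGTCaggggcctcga
The Bok window holds 0 matches, the Bad windows hold 2 and 3. Over both strands, GACCC occurs in 43.9% of 32851 promoter windows in the table and in 51.5% of 15838 windows of tested genes. For 22 of the 24 genes of smallest p the table holds windows (none for Coprs or Fras1), 27 in all. Windows overlap for Zscan18 and for Cuta, so matches they share are counted more than once. GACCC occurs in 17 of these 27 and in at least 1 window of 14 of the 22 genes, in 50.9% of 536 windows of genes with a lower value and p under 0.05, and in 53.4% of 446 windows of the higher ones. The share of all tested genes with a match in at least 1 window was not counted. A match is a run of letters, and no binding was measured.

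Zbtb7a (Entrez 16969), the mouse gene named for the vector, was not higher in the libraries labelled ZBTB7A. Its normalized counts were 3033, 3507, 4204, 4666 and 3762 in GFP control, and 3859, 3955, 3843, 3567 and 3357 in ZBTB7A control. In GFP stress they ran from 3681 through a median of 3842 to 4330, and in ZBTB7A stress they were 3899, 3887, 3721, 3743 and 3470. The groups overlap in both stress conditions, and the widest spread is in GFP control. The pooled log2 fold change was -0.05 ± 0.06 (SE), or 0.965-fold (95% interval 0.890 to 1.05; exact two-sided permutation p = 0.421, vector labels exchanged within each stress condition). It stayed between -0.09 and -0.01 when any 1 library was left out, and was 0.11, -0.19 and -0.08 within the 3 runs of library numbers, the order in which title numbers pass through the groups. The labels do not give the species of the coding sequence in the vector, and reads of a non-mouse or codon-altered sequence need not be counted on Zbtb7a, so the labels could not be checked by this gene. All directions are between libraries by their labels.

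**Figure D1:**
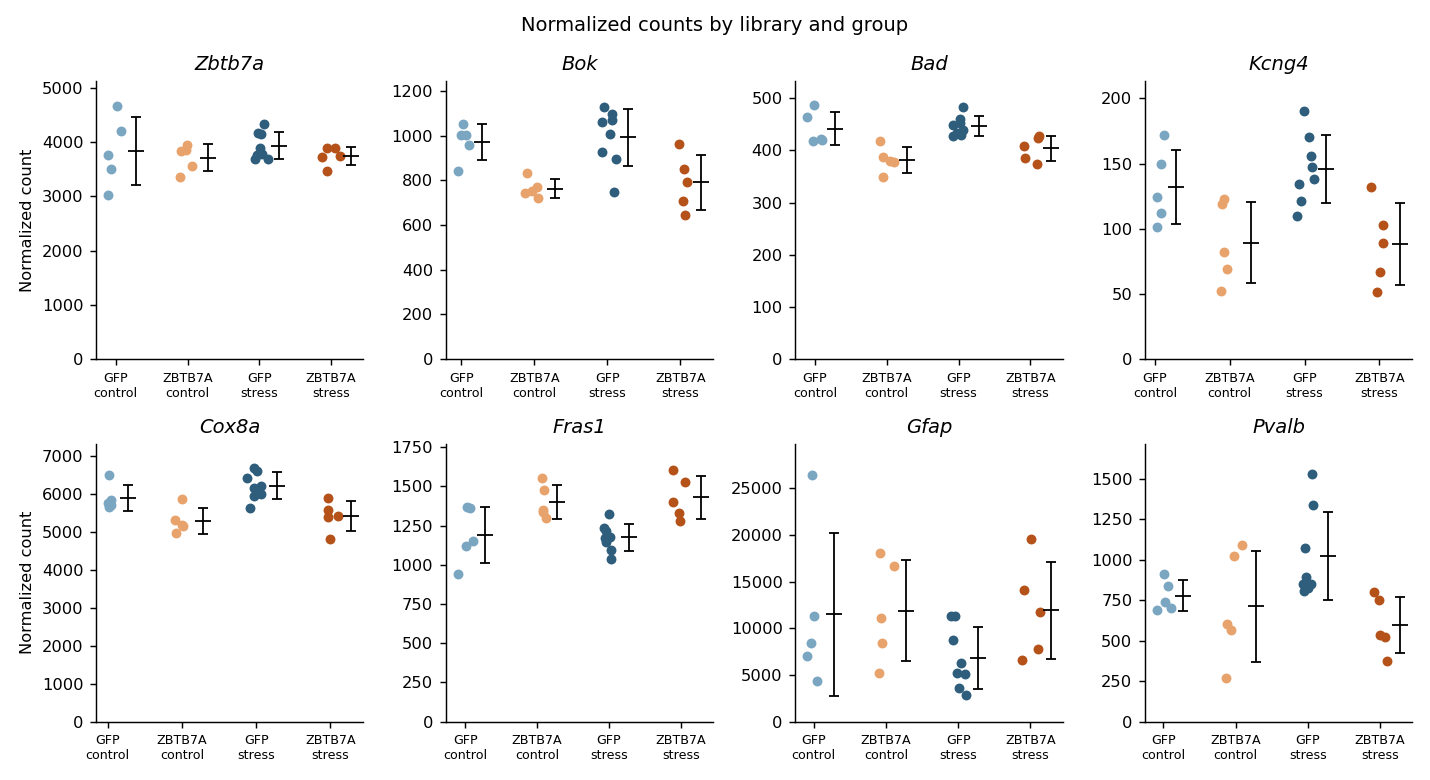
Normalized counts (linear axes from 0) of 8 genes; points are libraries, and the bars beside them are mean ± SD (n = 5, 5, 8 and 5 from left to right). Bok is lower in ZBTB7A control than in every GFP control library, the Bad groups are separate in both conditions by less than 1 count, and Gfap overlaps throughout. The share of all tested genes that separate in the control groups alone was not counted.

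Gfap, the intermediate filament whose promoter drives both vectors, had normalized counts of 7060, 11271, 26388, 4330 and 8411 in GFP control, and of 18044, 16701, 11154, 5208 and 8427 in ZBTB7A control. GFP stress ranged from 2840 through a median of 5735 to 11345, and ZBTB7A stress held 11733, 14078, 19524, 7817 and 6598. The groups overlap in both conditions, and the pooled log2 fold change was 0.52 ± 0.31 (exact permutation p = 0.131), or 0.33 with array weights and 0.35 with the striatal level as a covariate. The glutamate transporters Slc1a2 (0.04 ± 0.05) and Slc1a3 (0.07 ± 0.07) and the water channel Aqp4 (0.02 ± 0.13) had pooled values near 0, and the sign of Aqp4 turned with array weights (-0.10). Serpina3n, a secreted protease inhibitor of reactive astrocytes, stood at 0.65 ± 0.35 (exact permutation p = 0.116) and the iron-binding protein Lcn2 at 1.39 ± 0.90 (exact permutation p = 0.168). Serpina3n was 0.39 with array weights, and Lcn2 0.77 with edgeR. The NF-kB inhibitor Nfkbia was at -0.05 ± 0.11, and turned to 0.07 without GFP control 2.

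Ranked by p among genes whose mean was at least 50, the first 24 were taken as the leading genes, by a rule on this same contrast, so their values describe the top of the ranking and are not evidence of change. The direction is lower under ZBTB7A for 20 and higher for 4. All 24 had the same sign in both stress conditions and in all 3 number runs, which a small pooled p favours by itself. No alternative setting turned any of the 24, and the smallest value kept 70.9% of its size.

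The cell death genes led this ranking. Bok (BCL2-related ovarian killer, Entrez 51800) is a pore-forming member of the BCL2 family. Its normalized counts were 844, 958, 1053, 1002 and 1005 in GFP control against 741, 721, 752, 831 and 768 in ZBTB7A control. In GFP stress they ran from 750 through 1034 to 1128, against 710, 849, 792, 961 and 646 in ZBTB7A stress. The control groups do not overlap, and the stress groups do. The share of all tested genes that separate in the control groups alone was not counted. The pooled fold was 0.791 (95% interval 0.716 to 0.875; log2 fold change -0.34 ± 0.07, limma adjusted p = 0.611). Bad, which binds and blocks the survival proteins of the family, had 419, 464, 422, 418.3 and 487 in GFP control and 417.9, 381, 387, 378 and 348 in ZBTB7A control. GFP stress held 428.7 to 484 with a median of 444, and ZBTB7A stress 423, 386, 374, 409 and 428.4. Neither pair of groups overlaps, but the margin is under 1 count in both, and 1 gene of 16385 met this pattern (0.0061%). Its pooled fold was 0.884 (0.834 to 0.936; log2 -0.18 ± 0.04, limma adjusted p = 0.611). Apaf1, which builds the apoptosome that activates caspases, was on the other side at 0.22 ± 0.06: 398, 429, 317, 333 and 371 in GFP control and 416, 426, 426, 393 and 463 in ZBTB7A control.

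The BCL2 family list as a whole held both signs. Of 17 tested members of that list, 7 were above 0 and 10 below, 0 passed, and the median was -0.02. Hrk, a BH3-only activator of cell death, was at 0.26 with an unadjusted limma p of 0.00191, opposite in sign to Bok and Bad. Sin3a, a scaffold of histone deacetylase complexes, was the lowest in p of the corepressor partners of ZBTB7A, at 0.10 ± 0.04 (limma adjusted p = 0.767), and the 24 members of that list had a median of -0.01.

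Cox8a, a subunit of cytochrome c oxidase, had 5655, 5830, 5707, 5776 and 6492 in GFP control and 4974, 5175, 5320, 5869 and 5162 in ZBTB7A control. In stress it ran from 5623 through 6194 to 6689 under GFP, and was 5424, 5908, 5393, 5578 and 4823 under ZBTB7A. In each condition 4 of 5 ZBTB7A libraries lay below the lowest GFP library and 1 lay inside the GFP range, and the pooled fold was 0.886 (95% interval 0.834 to 0.941). Of the other leading genes with a known mitochondrial role, picked after their values were seen, Coa3, an assembly factor of the same enzyme, was at -0.15 ± 0.04, the mitochondrial deacetylase Sirt3 at -0.17 ± 0.04, and Stoml2, a scaffold of the inner membrane, at -0.14 ± 0.04. Sirt3 counts were 1169, 1365, 1310, 1373 and 1339 in GFP control and 1102, 1213, 1237, 1320 and 1096 in ZBTB7A control.

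Among the 40 tested genes of oxidative phosphorylation, the nuclear-encoded subunits of the respiratory chain and ATP synthase, 38 were below 0, beside 50.7% of all tested genes. The list's median log2 fold change was -0.08, beside -0.00 over all tested genes. An unadjusted p under 0.05 was found for 11 of the 40, all lower, beside 3.31% of all tested genes, and 0 passed adjustment. The median was -0.07 without stress and -0.10 with stress, and ran from -0.11 to -0.06 over the alternatives and left-out libraries. The -0.06 came with the short minus long transcript level as a covariate. Within the 3 number runs it was -0.10, -0.01 and -0.14. Uqcrq, a small subunit of complex III, was at -0.14 ± 0.05. Cox8a (550 bases) and Uqcrq (1521 bases) are among the 2983 tested genes with the shortest transcripts. Of those genes 61.1% were below 0, and 235 were lower at an unadjusted p under 0.05. A comparison of this list with genes of like transcript length was not made.

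The other metabolic lists also had medians below 0. All 24 cholesterol synthesis genes were below 0, with a median of -0.11. An unadjusted p under 0.05 was found for 5, beside 3.31% lower among all tested genes (50.7% of which were below 0), and 0 passed adjustment. Pmvk, a kinase of the mevalonate pathway, had 705, 636, 596, 619 and 645 in GFP control against 455, 558, 579, 630 and 646 in ZBTB7A control. It held 622 to 781 with a median of 690 in GFP stress, against 562, 608, 633, 614 and 589 in ZBTB7A stress. The groups overlap in both conditions; the pooled value was -0.18 ± 0.05 (limma adjusted p = 0.767). This list's median was -0.06 without ZBTB7A control 6, -0.05 with array weights or with the striatal level as a covariate, and -0.32, -0.21 and 0.03 within the 3 number runs. Glycolysis had 18 of 22 members below 0 and a median of -0.06, with Pfkm and Eno1 each at -0.11 ± 0.05.

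The remaining leading genes have varied roles. Kcng4, a modifier subunit of voltage-gated potassium channels, had the greatest fold among the 24: 124, 102, 172, 112 and 150 in GFP control against 52.5, 69.2, 119, 123 and 82.5 in ZBTB7A control. GFP stress ran from 110 through 143 to 191, and ZBTB7A stress held 66.7, 89.0, 132, 103 and 51.6. The groups overlap in both conditions, and the pooled fold was 0.621 (95% interval 0.493 to 0.782). Lurap1l (-0.44 ± 0.11) and the kinase Stk32b (-0.45 ± 0.11) followed in size. Stk32b was -0.68 without stress and -0.22 with it, and the difference between those 2 values had a limma adjusted p = 0.670. Ppia, the cyclophilin A prolyl isomerase, was at -0.27 ± 0.07; it has many near-identical processed copies, so its counts are uncertain. Atox1, a copper chaperone, was at -0.20 ± 0.05, and Herpud1, a component of degradation at the endoplasmic reticulum, at -0.14 ± 0.04. Tmem160 (-0.24 ± 0.05), Coprs (-0.27 ± 0.06), a partner of the arginine methyltransferase PRMT5, Hcfc1r1 (-0.16 ± 0.04), a regulator of the transcription cofactor HCFC1, and the neuronal actin-binding protein Tagln3 (-0.18 ± 0.04) were among the 7 genes DESeq2 called. Also among the 24 were Cuta (-0.20 ± 0.05), the calcium-binding Cib2 (-0.28 ± 0.08), the nucleotidase Nt5c (-0.17 ± 0.05) and Fam213b (-0.16 ± 0.04).

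On the higher side, Fras1, an extracellular matrix protein of basement membranes, had 942, 1120, 1153, 1365 and 1363 in GFP control and 1296, 1476, 1551, 1346 and 1337 in ZBTB7A control. GFP stress ran from 1039 through 1175 to 1322, and ZBTB7A stress held 1402, 1277, 1330, 1527 and 1607. The groups overlap, and the pooled fold was 1.20 (95% interval 1.10 to 1.31). Jag1, a Notch ligand, was at 0.36 ± 0.09, with 200, 204, 188, 184 and 223 in GFP control and 320, 212, 232, 192 and 230 in ZBTB7A control. Zscan18, a zinc-finger gene, was at 0.16 ± 0.04.

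**Figure D2:**
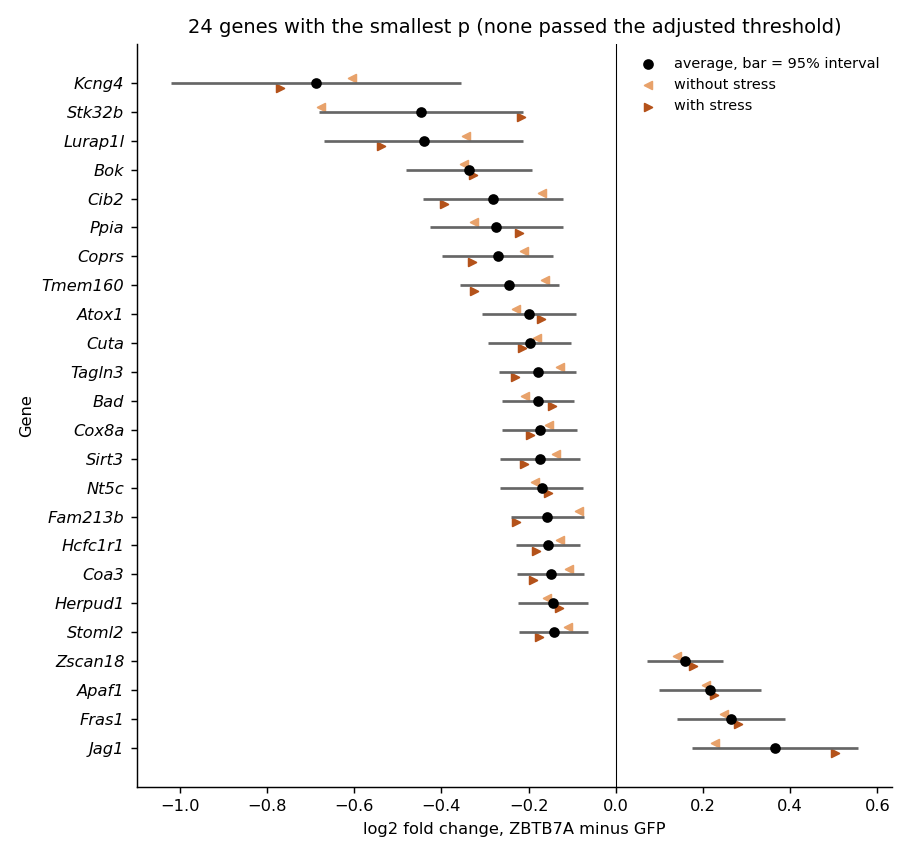
Pooled log2 fold change (black point, bar = 95% interval) of the 24 leading genes, with the values without stress and with stress as triangles. The 20 genes below 0 and 4 above 0 have both triangles on the same side, and none passed the adjusted threshold of 0.05.

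Over all genes, the vector differences of the 2 stress conditions were set side by side. The control and the stress differences share no library, and 8026 genes (49.0%) had the same sign in both. Their correlation across genes was -0.26 (Pearson) and -0.08 (Spearman), a description, since genes within these libraries are not independent. The difference of the 2 effects, the vector by stress interaction, gave 0 genes at an adjusted p under 0.05 (limma, 0% called; smallest 0.0976), and 1216 genes (7.42%) at an unadjusted p under 0.05. That count was 5064 with array weights, and the adjusted count was then 2068. Among 13416 genes with a mean of 50 or more, 93.9% had a 95% interval that lay wholly within 1.5-fold of no change, either way.

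**Figure D3:**
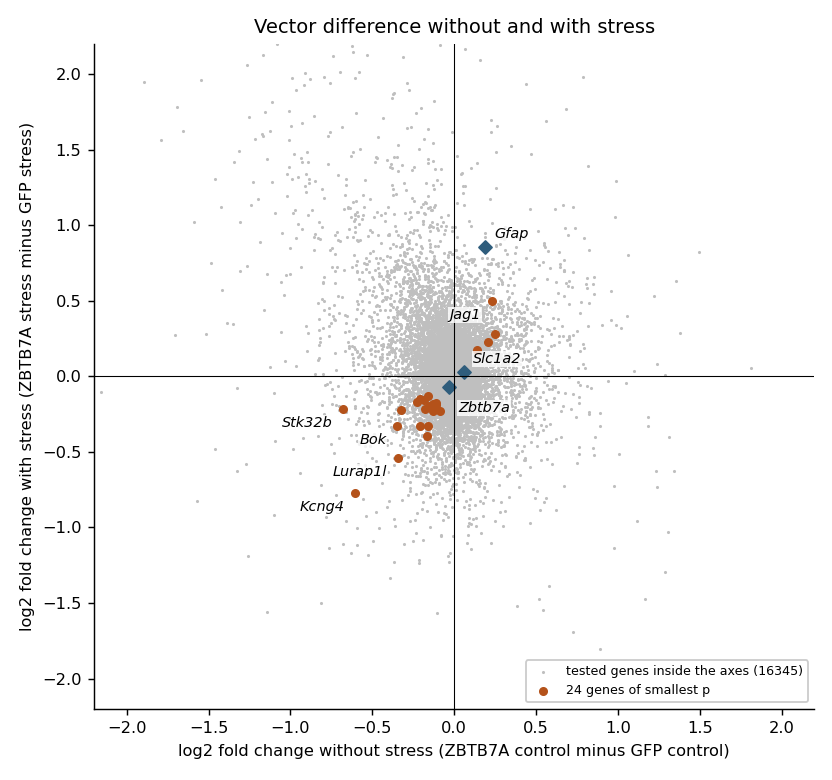
Log2 fold change without stress (horizontal) against with stress (vertical) for tested genes inside the axes (grey), the 24 leading genes (orange) and Zbtb7a, Gfap and Slc1a2 (blue diamonds). The grey cloud shows 49.0% of all tested genes on the same side of 0 in both conditions, and the orange points lie in the lower left and upper right.

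Reactive astrocyte genes lay above 0 in 29 of 30 tested members, with a median of 0.31, 4 higher and 1 lower at an unadjusted p under 0.05 (2.76% and 3.31% over all tested genes), and 0 passed. Ptx3, a secreted pentraxin, was at 1.02 ± 0.40 and the chemokine Cxcl10 at 1.14 ± 0.48 (limma adjusted p = 0.767 for both). Ptx3 counts were 7.56, 12.1, 40, 3.87 and 7.06 in GFP control and 28, 49.7, 16.4, 16.7 and 11 in ZBTB7A control. The list's median was 0.11 without stress and 0.53 with stress, and was 0.18 with array weights, 0.47 with the short minus long transcript level as a covariate, and 0.20 without ZBTB7A stress 17, which stood above its group for Cxcl10, Tap1, H2-Ab1 and the NF-kB list. Homeostatic astrocyte genes had a median of -0.00, with 12 above 0 and 13 below. Microglial genes had 23 of 24 above 0 and a median of 0.16, with no unadjusted p under 0.05. Their median was 0.08 with array weights and 0.10 with the striatal covariate. Within the 3 number runs the median was 0.52, 0.56 and 0.03 for reactive astrocyte genes, and 0.35, 0.27 and -0.0033 for microglial genes. NF-kB targets had a median of 0.06 (17 of 24 above 0), and interferon genes 0.06, which was -0.02 without ZBTB7A stress 17.

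All 19 striatal medium spiny neuron genes, markers of a neighbouring region, were above 0, with a median of 0.75: -0.32 without stress and 1.77 with stress. The summed level of 7 striatal markers ranged 22.4-fold, from 5342 to 119723 normalized counts, and the highest was ZBTB7A control 6. Excitatory cortical neuron genes had 17 of 24 below 0 and a median of -0.21, which was -0.05 with array weights, -0.08 with the striatal covariate and -0.06 without ZBTB7A control 6, the library lowest in the excitatory markers. Myelin genes were at -0.29 without stress and 0.61 with it, and the median of 0.17 turned to -0.09 with the striatal level as a covariate. Synaptic vesicle genes had 22 of 26 below 0, and the median of -0.10 was -0.02 with the striatal covariate or with array weights, and -0.03 without ZBTB7A control 6. With the striatal level as a covariate, 8 of the other 21 list medians turned in sign. Most of these had been near 0 without it: homeostatic astrocyte -0.0031, corepressor -0.0070, ribosomal 0.0069, interneuron 0.0090, immediate early -0.024 and choroid 0.027. Myelin (0.17) and meningeal fibroblast (-0.11) had been further from 0. The 24 leading genes kept their sign with this covariate, at 70.9% to 112% of their size. Bok stood at -0.28, Kcng4 at -0.54, Lurap1l at -0.33 and Jag1 at 0.26. All markers of astrocytes, neurons, oligodendrocytes, microglia and endothelium were detected, and astrocyte markers summed to 69754 to 86893.

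Among interneuron genes Pvalb, a calcium buffer of fast-spiking cells, was at -0.53 ± 0.19 and the stress peptide Crh at -0.52 ± 0.19 (limma adjusted p = 0.767 for both), and with the striatal covariate they were -0.29 and -0.28, while the 23 tested members had a median of 0.01. Pvalb counts were 741, 691, 837, 704 and 914 in GFP control and 271, 605, 1026, 1090 and 567 in ZBTB7A control. In stress they ran from 810 through 872 to 1526 under GFP and were 523, 537, 799, 753 and 377 under ZBTB7A. The groups did not overlap in stress only, and the share of all tested genes with that pattern was not counted. Crh was 42.0 in ZBTB7A control 6, the lowest value in any library. Ttr, the transthyretin of choroid plexus, was at -2.21 ± 0.87 and was called by DESeq2. Its counts were 7567 and 4890 in GFP control 1 and 10 but 194, 844 and 241 in the other GFP control libraries, so a few libraries set its level, and choroid plexus markers summed to between 85.5 and 8561. Tsc22d3, a glucocorticoid-induced gene, was at -0.22 ± 0.08, while the list's median of -0.06 was 0.04 without GFP control 2. Immediate early genes had a median of -0.02, ribosomal protein genes of 0.01, with many near-identical copies, and endothelial genes of 0.05. All 14 oligodendrocyte precursor genes had a pooled value above 0, with a median of 0.05, but the median was -0.11 without stress and 0.20 with stress, and 1 of the 14 had the same sign in both. With the striatal covariate the pooled median was 0.0051, and without ZBTB7A control 6 it was 0.03. Of 15 meningeal fibroblast genes 11 were below 0, with a median of -0.11 that was -0.01 without ZBTB7A stress 9 and turned to 0.02 with the striatal covariate. Across the 22 lists 49 of 523 tested members had an unadjusted p under 0.05, beside 6.07% of all tested genes, and 0 passed.

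**Figure D4:**
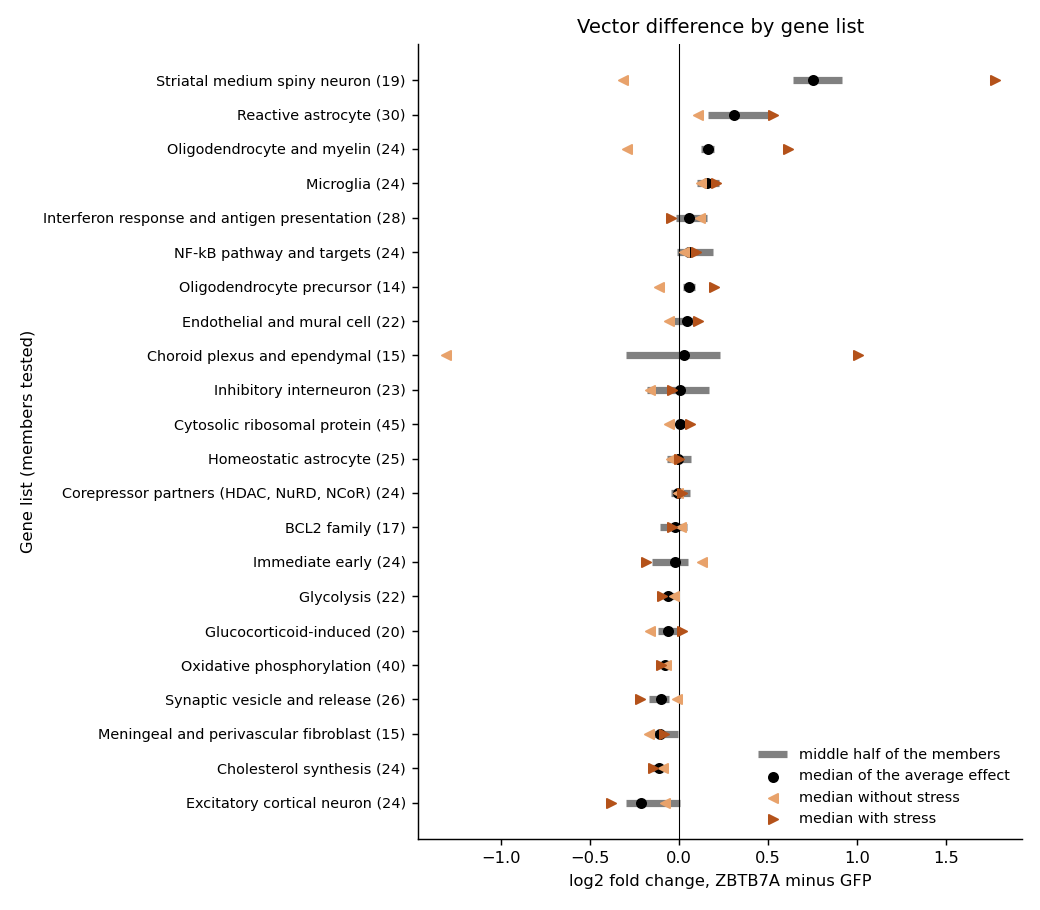
Median log2 fold change of 22 gene lists (tested members in brackets; black point, bar = quartiles) with the medians without and with stress as triangles. Striatal, myelin and choroid lists have triangles far apart and on opposite sides of 0, while oxidative phosphorylation and cholesterol have both below 0.

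Lower and higher genes were unevenly spread over transcript length, taken as the longest protein-coding transcript of each of 14893 tested genes. The 20% of genes with the shortest transcripts (204 to 1841 bases) numbered 2983. Of these 235 were lower and 33 higher at an unadjusted p under 0.05. Among the 2979 genes of the longest 20% (5191 bases or more), 27 were lower and 148 higher. Over all tested genes 3.31% were lower and 2.76% higher at that p. By GC content, 184 were lower and 26 higher in the 20% of genes richest in GC, against 45 and 101 in the poorest 20%. Of the 20 lower leading genes 15 were among the shortest 20%. The short minus long level of each library averaged a difference of -0.05 between vectors (exact permutation p = 0.126, or 0.253 adjusted over this level and the matching GC level), and was 0.05, -0.04 and -0.13 within the 3 number runs. With that level as a covariate, chosen after seeing the data, all 24 leading genes kept p under 0.05, with 0 past adjustment. They were picked for small p in this same contrast, so this is not evidence for them. Among all tested genes 2772 had p under 0.05 with the covariate, against 994 without it. Over all 16385 tested genes in that fit, 1640 were lower and 1132 higher at an unadjusted p under 0.05. Among the 2983 genes of the shortest 20%, 256 were lower and 154 higher, against 378 and 242 among the 2979 of the longest 20%. The lower side held more genes at both ends, as it did over all tested genes.

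**Figure D5:**
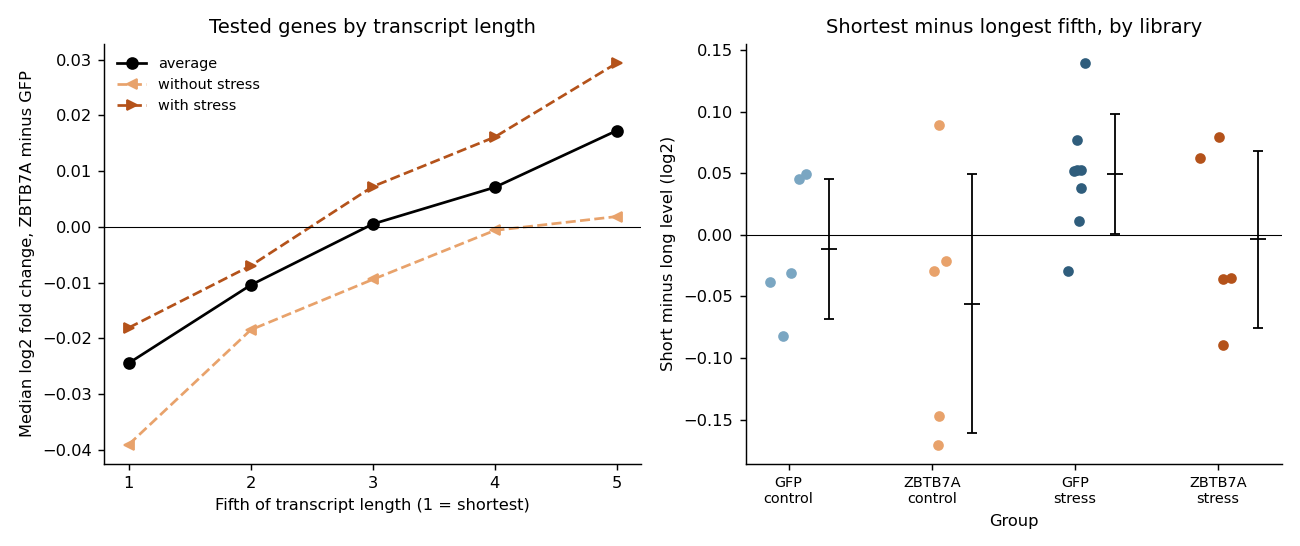
Left, median pooled log2 fold change in 5 equal classes of transcript length, from -0.02 in the shortest to 0.02 in the longest; right, short minus long level of each library (log2), with mean ± SD by group. ZBTB7A and GFP groups overlap in both stress conditions.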

How the data were processed

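Per the labels, extraction used Trizol with RNeasy Micro columns, and TruSeq RNA v2 libraries followed. Tools named in the submitters' processing notes are featureCounts 2.0.1, HISAT2 2.1.0 and DESeq2 2.11.40.6, and builds are mm10 and mm9 without roles, so no coordinate comes from the deposited values. The deposited values are a signal, normalized counts, which the authors divided by 1 size factor per library. In each library 100% of them were whole reads over 1 factor within 0.02, so whole reads were recovered: 12.5 to 51.9 M per library. Of 27606 rows, 428 identical repeats were removed and 27178 genes kept.

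Genes whose value reached 10 in 5 or more libraries entered the test on log2(value + 1) with limma 3.58.1 (R 4.3.3, 4 group means, trended and robust empirical Bayes), adjusted over all 16385 genes, and fold changes are on that scale, which understates low genes. Single values were tested by exact permutation of vector labels within stress conditions. Recovered reads were tested with edgeR 4.0.16 and DESeq2 1.42.0 as alternatives, besides another pseudocount, filters, TMM, array weights, covariates and each library left out. Tests are two-sided, errors on log2 values SE. Named genes are Zbtb7a, a panel of 7 (Gfap, Slc1a2, Slc1a3, Aqp4, Serpina3n, Nfkbia, Lcn2), the 24 lowest p among genes whose mean was at least 50, and the 2 members of smallest p of each list. Other members named in the text were chosen after their values were seen. The members and lists were chosen with earlier results of these data known. Transcript lengths come from GENCODE M21 and promoters from RefSeq. The main limma fit was tested on simulated data, and the alternative fits were not.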

Additional observations from a re-analysis of the deposited data

Results flagged for a closer look

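In 388 groups of 5 to 8 libraries, 31 held 1 library far from the others by Dixon's ratio, and 1 in 20 groups, or 19.4, would by chance. The same 23 libraries recur across these groups, so the flags are not independent of each other. These are normalized counts unless a list level (log2, mean of centred members) is named. GFP control 10 was low for Zscan18 (597) and Gprin3 (197) and high for Itgam (1114) and Icam1 (233). GFP control 11 was high in the synaptic vesicle level (0.24) and low for Rpl4 (6226), and GFP control 19 was high for Cox8a (6492). GFP control 2 was high in the glucocorticoid level (0.65) and for Nfkbia (936). GFP stress 12 was high in the synaptic vesicle level (0.26). GFP stress 13 was high in the level of GC-rich minus GC-poor transcripts (0.38) and for Pdgfrb (1079) and low for Tagln3 (5911). GFP stress 21 was high in the interneuron level (0.37). GFP stress 22 was low in the immediate early level (-0.40), in the BCL2 family level (-0.16) and for Tmem160 (344).

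ZBTB7A control 6 was low for Bdnf (147), Cck (1679) and Crh (42.0) and in the excitatory neuron level (-0.71). ZBTB7A control 14 was low for Tsc22d3 (898) and high for Col3a1 (238), ZBTB7A control 15 was high for Slc1a2 (62718), and ZBTB7A control 23 was low for Pdgfrb (706). ZBTB7A stress 17 was high for Tap1 (173), H2-Ab1 (402) and Cxcl10 (78.0) and in the NF-kB level (0.40). ZBTB7A stress 7 was low for Slc1a2 (52536), and ZBTB7A stress 9 was low for Pcolce (98.9).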

How the results depend on the processing

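No gene passed for the averaged vector difference in the limma fits, at an adjusted p under 0.05 or 0.1, or in edgeR. DESeq2 on recovered reads called 7, and gave no adjusted p for 2866 genes. Interaction calls were 0, and 2068 with array weights, 3 with DESeq2, 1 at an adjusted p under 0.1 and 1 with the short minus long transcript level as a covariate, and ranged from 0 to 79 with 1 library left out (79 without ZBTB7A control 6, 2 without GFP stress 13). The 994 genes at an unadjusted p under 0.05 became 1598 with array weights, 1524 with number run as a covariate, 586 with the striatal level and 2772 with the short minus long level, and 710 to 1561 with 1 library left out. The 1216 for the interaction became 5064 with array weights and 336 with the striatal level, and 720 to 3406 with 1 library left out. The cause was not tested. Aqp4 turned to -0.10 with array weights and ranged from -0.063 to 0.065 over left-out libraries, and Nfkbia turned to 0.017 with the short minus long level and ranged from -0.10 to 0.069. None of the 24 leading genes turned, and 7 of 73 named genes passed in any alternative, all in DESeq2. The median over all tested genes stayed between -0.0048 and 0.0020. No paired analysis was possible because the groups share no replicate numbers. Groups of 5 to 8 libraries and the spread in sampled tissue limit what can be seen: the median 95% interval was 1.12-fold either way.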
